A study of Mus musculus with 7 samples.

Results

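Sepp1, selenoprotein antioxidant genes and 2 receptor genes were examined as a group in optic nerves of mice. In the mutants, fatty acid synthase was removed from the oligodendrocyte (OL) lineage. The group was set by name and holds 9 of the 22880 genes in the deposited table: Sepp1, Sepw1, Gpx1, Gpx3, Gpx4, Txnrd1, Txnrd2, Lrp8 and Lrp2. All 9 were present and all passed the filter on low values. RNA came from postnatal day 14 (P14) optic nerves of 4 control mice, which carried FASN lox/lox and no Cre, and 3 mutant mice, which were olig2cre FASN lox/lox. Floxed Fasn alleles were thus shared by both groups, and Cre driven by Olig2 regulatory elements was present in the mutants alone. The background is given as C57Bl/6. By the paper, the floxed line arose in another strain and was then backcrossed to C57Bl/6. Both optic nerves of an animal were pooled into 1 sample, and the labels do not give the sex. Whole nerves hold OLs, astrocytes, microglia, vessels and meninges, and every value is a mean over these cells. A gene can therefore differ because of the number of cells of a type or the RNA per cell, and these cannot be told apart here.

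Selenoproteins contain selenocysteine, an amino acid that is inserted at a UGA codon which would otherwise end translation. The insertion needs a structure elsewhere in the messenger RNA and a dedicated set of enzymes and factors, and it depends on selenium supply. Selenoprotein P (Sepp1) is secreted and carries selenium between cells. Its receptors are ApoER2 (Lrp8), known from brain and testis, and megalin (Lrp2), known from kidney. Glutathione peroxidases, thioredoxin reductases and selenoprotein W use a selenocysteine to reduce peroxides or disulfides. Sepp1 and its partners were chosen with the comparison of mutant and control values in view. Their differences are therefore given as a description, without a test.

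The selenocysteine codons are shown because they are what the selenoproteins of the group share at the sequence level. In the GENCODE M21 transcripts of GRCm38, 7 of the 9 genes had an in-frame selenocysteine codon, and Lrp8 and Lrp2 had 0. Sepp1 had 10, whereas each of the other 6 had 1. In the coding sequences below, 12 bases precede the codon and up to 12 follow it, and the capitals mark the selenocysteine codon.
Sepp1, first codon, codon 59, chr15:3274848-3274850, plus strand: cttcaagccagcTGAtacttgtgtctt
Gpx1, codon 47, chr9:108339451-108339453, plus strand: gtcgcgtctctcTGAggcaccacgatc
Gpx3, codon 73, chr11:54907256-54907258, plus strand: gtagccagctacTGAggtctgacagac
Gpx4, codon 73, chr10:80054737-80054739, plus strand: gtggcctcgcaaTGAggcaaaactgac
Sepw1, codon 13, chr7:15920464-15920466, minus strand: tattgtggagctTGAggctataagccc
Txnrd1, codon 498, chr10:82896037-82896039, plus strand: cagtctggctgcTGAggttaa
Txnrd2, codon 526, chr16:18477772-18477774, plus strand: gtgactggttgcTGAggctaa
In both thioredoxin reductases 1 codon followed it before the stop codon, and both lines end with that stop codon. The bases gg followed the selenocysteine codon in all 6 genes with a single codon and in 0 of the 10 codons of Sepp1. In the 17 other selenoprotein genes gg followed 6 of 18 codons. The end of the Sepp1 coding sequence, from codon 350 to the stop codon at 381, held 5 of its 10 selenocysteine codons in 96 bases.
Sepp1, codons 350 to 381: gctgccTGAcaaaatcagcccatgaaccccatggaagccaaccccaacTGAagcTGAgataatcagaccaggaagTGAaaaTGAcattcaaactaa

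Levels were deposited as FPKM, fragments counted per unit of transcript length and of library size, so that levels of different genes can be compared per length. The total was between 27452222 and 43462575 reads per sample, as recovered from the steps between low values. Behind the members stood 20966 to 31627 reads per sample for Sepp1 and, at the other end, 104 to 164 for Lrp2. Fasn, the deleted gene, was at 169 to 228 FPKM in control and 49.0 to 69.3 FPKM in mutant nerves, so its RNA was reduced but not absent in the whole nerve. Defining markers of OLs and astrocytes were abundant. Of the choroid plexus markers, Ttr, Folr1 and Kcne2 did not pass the filter, whereas Kl and Clic6 did. Kl was at 3.312 to 4.998 FPKM in control and 5.291 to 9.974 FPKM in mutant nerves, without overlap. Clic6 was at 0.1545 to 0.5694 FPKM in control and 0.249 to 0.7578 FPKM in mutant nerves, with overlap. Mutant sample 1 stood apart, with 14.1 FPKM of Ttr against 0.269 and 0.475 in the other mutant samples and a summed meningeal fibroblast level of 2153 FPKM against 1164 and 1196. Values without it are given for Sepp1, Gpx3 and Gpx1 and for several genes of the other lists.

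Sepp1 was the most abundant of the 9 genes. In control nerves its mean of 722 FPKM ranked 60th among the 13866 genes tested. Sepw1 (287 FPKM) and Gpx4 (275 FPKM) followed, with overlapping control ranges, and then Gpx1 (95.1 FPKM). Txnrd1 (17.9 FPKM) and Gpx3 (16.6 FPKM) again overlapped, above Lrp8 (11.2 FPKM) and Txnrd2 (5.82 FPKM), and Lrp2 was near the limit of the filter at 0.545 FPKM. All other neighbours in this order had control ranges that did not overlap. The level of Sepp1 rests on a length of 977 bases used by the authors, whereas the GENCODE transcript with all 10 selenocysteine codons is 2013 bases long. With that longer length the control mean would be 350 FPKM, still above Sepw1 with 287, and the order of all 9 genes would not change.

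Sepp1 (ENSMUSG00000064373, chr15:3268547-3280508, plus strand) encodes the secreted selenium carrier. The controls, numbered 1 to 4, measured 746.9, 723.1, 731.3 and 685.0 FPKM, and the mutants, numbered 1 to 3, measured 869.2, 975.6 and 982.3 FPKM. The ranges did not overlap, with mutant sample 1 nearest to the control range. The control samples lay close together, with a coefficient of variation of 3.65%, the lowest of the 9 genes. The mean was 722 ± 26.3 FPKM for controls and 942 ± 63.5 FPKM for mutants (SD, n = 4 and 3). The mutant mean was 131% of the control mean, and the difference on the scale of log2(FPKM + 0.5) was 0.38 (standard error 0.0751). Without mutant sample 1 it was 0.44.

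Gpx3 (ENSMUSG00000018339, chr11:54902453-54910377, plus strand) encodes the secreted glutathione peroxidase. Controls 1 to 4 measured 15.17, 15.57, 19.03 and 16.73 FPKM, and mutants 1 to 3 measured 30.13, 24.16 and 24.89 FPKM. The ranges were again separate, here with the highest value in mutant sample 1. Mean levels were 16.6 ± 1.73 FPKM for controls and 26.4 ± 3.26 FPKM for mutants (SD, n = 4 and 3), so that mutant nerves held 159% of the control level. With a log2 difference of 0.65 (standard error 0.104), Gpx3 had the largest difference of the 9 genes. Without mutant sample 1 it was 0.55. Sepp1 and Gpx3 are also the members that encode secreted proteins.

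**Figure D1:**
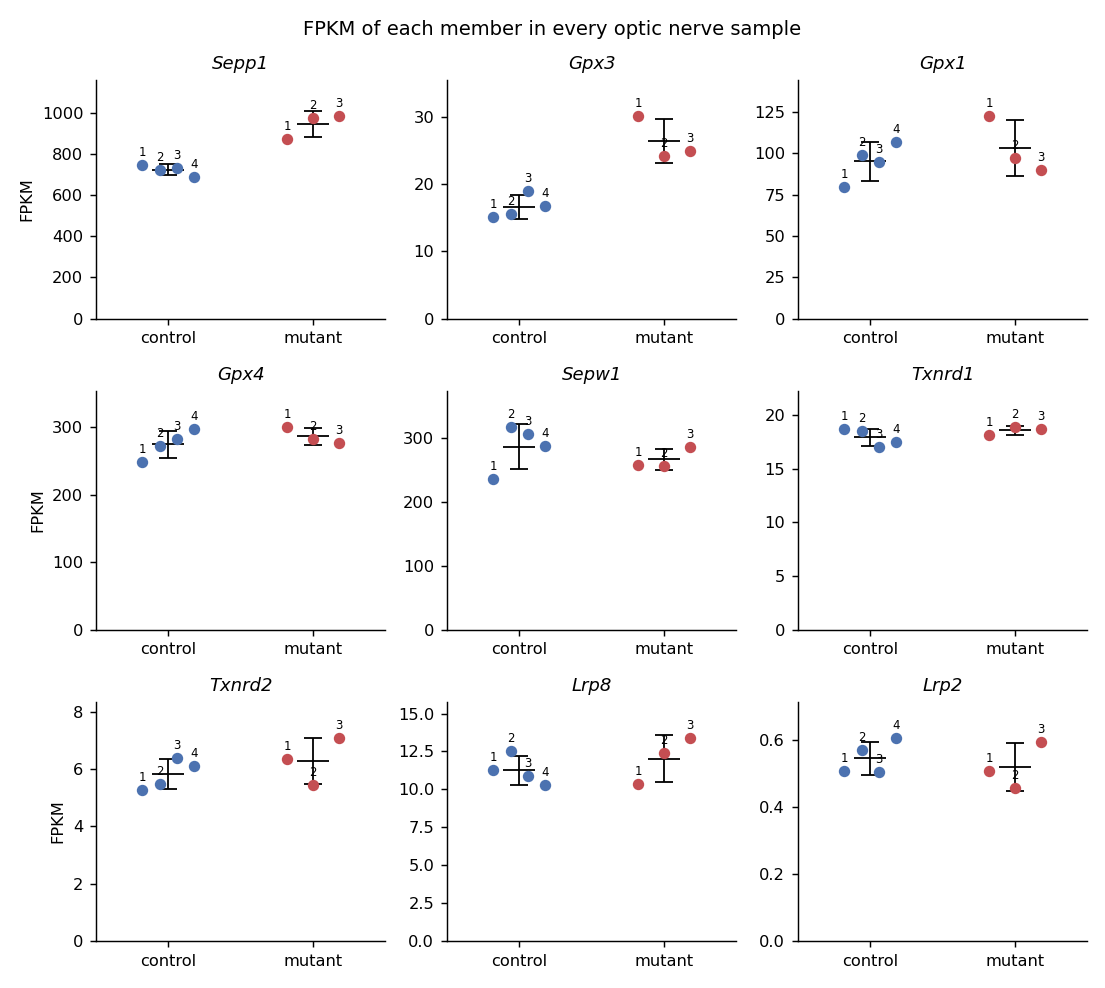
FPKM (y axis, from 0) of the 9 genes in each optic nerve sample, control in blue and mutant in red, with the sample number beside each point; the bar is the mean and the whiskers are 1 SD. For Sepp1 the mutant samples lie between 869.2 and 982.3 FPKM and the control samples between 685.0 and 746.9 FPKM, Gpx3 shows the same separation, and the groups of the other 7 genes overlap.

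The intracellular glutathione peroxidases had overlapping groups. Gpx1 (ENSMUSG00000063856, chr9:108338903-108340343, plus strand), the cytosolic and mitochondrial enzyme, had control levels of 79.48, 99.06, 94.70 and 107.1 FPKM and mutant levels of 122.5, 97.27 and 90.17 FPKM. Mutant sample 1 alone was above the control range. The log2 difference was 0.12 (standard error 0.125), and without mutant sample 1 it was -0.0134. Gpx4 (ENSMUSG00000075706, chr10:80053488-80056439, plus strand) reduces lipid hydroperoxides within membranes and guards against ferroptosis. It was at 249.3, 272.0, 282.1 and 297.0 FPKM in control and at 300.1, 282.8 and 277.0 FPKM in mutant nerves, with a log2 difference of 0.0612 (standard error 0.0732) that was -0.0169 on the normalized counts and -0.0213 with samples centred on their median. Control sample 1 was the lowest of all samples for both Gpx1 and Gpx4.

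Sepw1 (ENSMUSG00000041571, chr7:15917208-15922402, minus strand), a small selenoprotein with a thioredoxin-like fold, had control levels of 237.0, 317.5, 306.3 and 287.9 FPKM and mutant levels of 257.9, 257.0 and 286.6 FPKM. The mutant samples lay inside the control range, whose low end was control sample 1. The log2 difference was -0.10 (standard error 0.103).

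The thioredoxin reductases keep thioredoxin in its reduced state, Txnrd1 in the cytosol and Txnrd2 in mitochondria. Txnrd1 (ENSMUSG00000020250, chr10:82859206-82897724, plus strand) was at 18.69, 18.48, 17.06 and 17.50 FPKM in control and at 18.14, 18.86 and 18.69 FPKM in mutant nerves. The ranges overlapped, and the log2 difference was 0.0493 (standard error 0.0630). It was -0.0273 on the normalized counts and -0.0331 with samples centred on their median, so its sign followed the scaling. Txnrd2 (ENSMUSG00000075704, chr16:18426417-18479073, plus strand) was at 5.28, 5.48, 6.4 and 6.12 FPKM in control and 6.33, 5.44 and 7.07 FPKM in mutant nerves, again with overlap (log2 difference 0.0979, standard error 0.111).

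Lrp8 was of middle abundance among the genes tested, with 53.3% of them below it, and Lrp2 was near the bottom. Lrp8 (ENSMUSG00000028613, chr4:107802261-107876840, plus strand), which binds selenoprotein P and reelin, was at 11.26, 12.55, 10.90 and 10.29 FPKM in control and at 10.33, 12.38 and 13.36 FPKM in mutant nerves. The groups overlapped, mutant sample 3 was the highest, and the log2 difference was 0.0879 (standard error 0.104). Lrp2 (ENSMUSG00000027070, chr2:69424340-69586065, minus strand) encodes megalin, an endocytic receptor. Its range of 0.504 to 0.604 FPKM in control overlapped that of 0.455 to 0.595 FPKM in mutant nerves, with a log2 difference of -0.0384 (standard error 0.128).

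Across all genes, limma-trend with Benjamini-Hochberg adjustment called 363 of 13866 genes (2.62%) at an adjusted p under 0.05, 175 higher (1.26%) and 188 lower (1.36%) in mutant nerves, and 24.4% had an unadjusted p under 0.05. With samples centred on their median the split was 117 higher and 283 lower, and on the normalized counts it was 102 and 266. When the replicate number was added to the fit as a block, in which control sample 4 has no partner and adds nothing to the difference, 8.36% of all genes were called and 6.42% of all genes were called higher, and with array weights 11.0% were called. The groups did not overlap in 2 of the 9 members, Sepp1 and Gpx3, with mutants above controls. Over all genes the groups did not overlap in 21.1%, with mutants above in 12.9% and below in 8.26%. Because the genes were chosen on this comparison, nothing is read from this count. The median log2 difference of the 9 genes was 0.0879, against 0.0478 for all genes tested.

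Together with 17 other selenoprotein genes, the 7 members with a selenocysteine codon made up 24 genes with 34 selenocysteine codons. Sepp1 held the largest part of their RNA. With the lengths used by the authors, its share of their summed FPKM was 35.9%, 32.5%, 33.3% and 32.1% for controls 1 to 4. For mutants 1 to 3 it was 37.5%, 40.7% and 40.6%. Each mutant share was above each control share. This restates the difference of Sepp1, which was chosen on this comparison, and nothing more is read from it. Weighted by the number of selenocysteine codons, Sepp1 accounted for 83.4% ± 1.02 of the codons in control nerves and 86.7% ± 0.886 in mutant nerves (SD, n = 4 and 3). With the lengths of the GENCODE transcripts these weighted shares were 74.8% ± 1.47 and 79.5% ± 1.23. The sum of the other 23 genes was 1437 ± 71.2 FPKM in control and 1436 ± 13 FPKM in mutant nerves. The weighting counts codons in RNA, and the short transcripts of Sepp1 in GENCODE that lack its end hold fewer of them, so these shares are not shares of protein or of selenium.

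**Figure D2:**
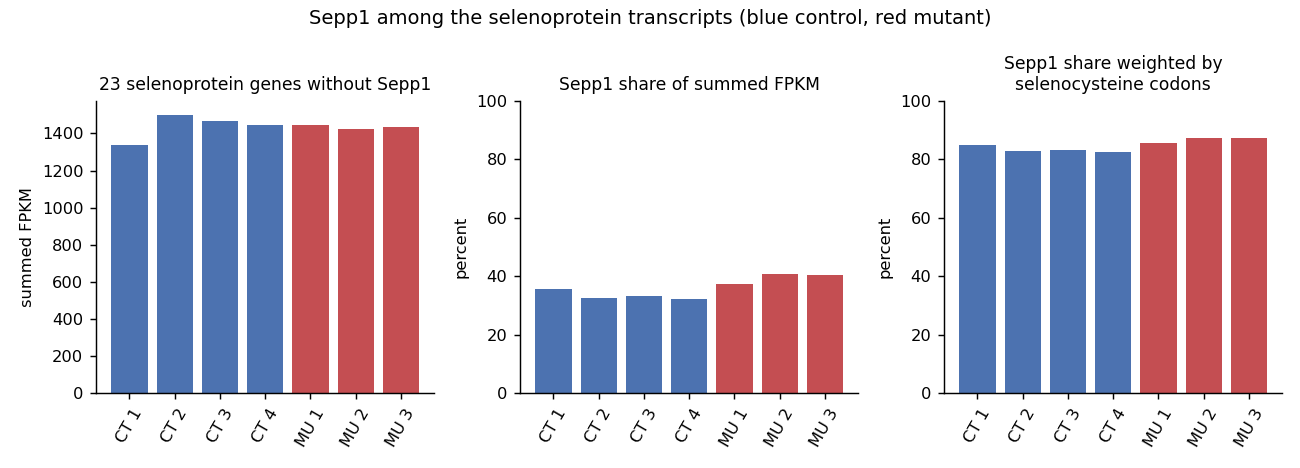
Summed FPKM of the 23 selenoprotein genes other than Sepp1 (left), and the share of Sepp1 in the summed FPKM of all 24 genes before (middle) and after (right) weighting by selenocysteine codons, as bars from 0 for each sample. All panels use the lengths of the authors. The Sepp1 share before weighting is between 32.1% and 35.9% in control (blue) and between 37.5% and 40.7% in mutant samples (red), while the sums of the other genes overlap.

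Whether the wider selenoproteome moved was examined with the 17 other selenoproteins, of which 14 passed the filter. None was called by limma-trend in either direction, against 2.62% of all genes, and in a list of 14 genes a count of 0 cannot be told apart from that share. An unadjusted p under 0.05 in limma-trend was found for 3 of 14, against 24.4% of all genes. Of the 14 genes, 7 had positive and 7 negative log2 differences, against 8329 positive and 5537 negative over all genes. The median was 0.00754 against 0.0478 for all genes. The most abundant were Sep15 (223 ± 15.1 FPKM in control, 214 ± 7.28 in mutant), Selt (173 ± 9.96 and 166 ± 4.64) and Selk (132 ± 7.32 and 130 ± 8.69), all found in the endoplasmic reticulum. The largest difference was that of Txnrd3, a thioredoxin reductase best known from testis. It measured 3.53, 2.49, 3.12 and 3.48 FPKM in control and 5.31, 4.08 and 4.09 FPKM in mutant nerves, without overlap. Its log2 difference was 0.45 with a standard error of 0.140 (limma-trend adjusted p = 0.106). The replicate block gave 0.49 with a standard error of 0.114, past the threshold (limma-trend adjusted p = 0.0447). Without the block, leaving out mutant sample 1 gave 0.34 (limma-trend adjusted p = 0.262). Sephs2, which makes the selenium donor and is itself a selenoprotein, was at 9.80 ± 0.893 FPKM in control and 8.15 ± 0.263 FPKM in mutant nerves (limma-trend adjusted p = 0.140). Gpx2, Dio1 and Selv did not pass the filter, with means of 0.0216, 0.00783 and 0.366 FPKM in control nerves.

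The machinery that makes and inserts selenocysteine was represented by 14 genes, all tested. None was called by limma-trend (2.62% of all genes), 3 had an unadjusted p under 0.05 (24.4% of all genes), and the median log2 difference was -0.00815. Secisbp2l, a paralogue of the factor that binds the insertion structure, was the most abundant with 376 ± 35.2 FPKM in control and 297 ± 22.6 FPKM in mutant nerves. It was at 422.8, 344.3, 381.8 and 353.7 FPKM in control and 274.6, 319.8 and 297.6 FPKM in mutant nerves, so the groups did not overlap. Its log2 difference was -0.33 with a standard error of 0.0885 (limma-trend adjusted p = 0.0767), and array weights brought it past the threshold (limma-trend adjusted p = 0.0243). Without mutant sample 1 and without weights the difference was -0.28 (limma-trend adjusted p = 0.182). Secisbp2, the binding factor itself, was at 13.2 ± 0.215 FPKM in control and 11.7 ± 0.352 FPKM in mutant nerves (log2 difference -0.17, standard error 0.0632, limma-trend adjusted p = 0.154). Rpl30 and Ncl, RNA binding proteins that also contact this structure, were the next most abundant and had log2 differences of 0.0285 and 0.0535. Sepsecs, the last enzyme in making selenocysteine on its transfer RNA, was at 8.0 ± 0.636 and 8.14 ± 0.323 FPKM.

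**Figure D3:**
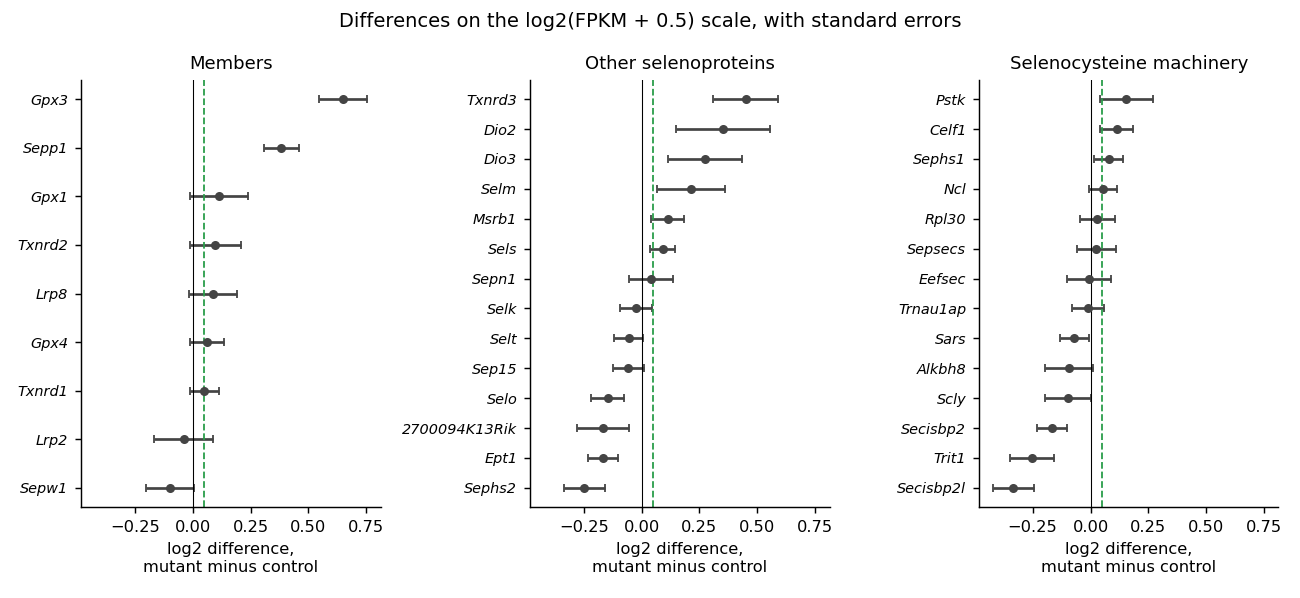
Log2 difference of mutant minus control with its standard error, on the log2(FPKM + 0.5) scale, for the 9 members, 14 other selenoproteins and 14 genes of the selenocysteine machinery; the solid line is 0 and the dashed line is the median of all genes tested, 0.0478. Gpx3 (0.65) and Sepp1 (0.38) lie farthest to the right among the members, while the other lists lie on both sides of 0.

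Genes that supply or share substrates with the members were listed as 35 redox partners, all tested. Of these, 2 rose and 0 fell in limma-trend, while 33 did not pass the threshold, against 1.26% of all genes called higher and 1.36% lower. An unadjusted p under 0.05 came from limma-trend for 12 of the 35, against 24.4% of all genes. The median log2 difference was 0.105. Nqo1, a quinone reductase, was at 6.88, 5.43, 6.87 and 8.06 FPKM in control and 13.3, 10.4 and 13.5 FPKM in mutant nerves. This was a log2 difference of 0.82 (standard error 0.139, limma-trend adjusted p = 0.0274), with no overlap. Txnip, which binds and inhibits thioredoxin, was at 162.8, 127.7, 180.5 and 200.8 FPKM in control and 323.9, 251.1 and 254.7 FPKM in mutant nerves. Its log2 difference was 0.73 (standard error 0.153, limma-trend adjusted p = 0.0467), also without overlap. Over all alternatives the adjusted p of limma-trend ran from 0.00664 to 0.0972 for Nqo1 and from 0.0224 to 0.117 for Txnip. With 1 sample left out, Nqo1 passed only when that sample was control 4 or mutant 2, and Txnip only when it was mutant 2, while with no filter on low values neither passed. Without mutant sample 1 the adjusted p from limma-trend was 0.0562 for Nqo1 and 0.0936 for Txnip.

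The peroxiredoxins, which reduce peroxides with cysteine in place of selenocysteine, were abundant. Prdx1 was at 286 ± 17.0 FPKM in control and 282 ± 10.9 FPKM in mutant nerves, and Prdx6, which is known from astrocytes, at 243 ± 18.1 and 291 ± 23.5 FPKM. Prdx2 was at 183 ± 10.7 and 171 ± 10.8 FPKM. Prdx6 had groups that did not overlap, with a limma-trend adjusted p of 0.109, or 0.0369 with array weights and 0.113 without mutant sample 1. Genes of glutathione synthesis gave values in both directions. Gclc and Gclm of this pathway had overlapping groups, with log2 differences of 0.0285 and -0.0554 (limma-trend adjusted p = 0.832 and 0.719). The cystine carrier Slc7a11 was at 49.3, 32.1, 39.1 and 44.1 FPKM in control and 86.7, 49.7 and 62.5 FPKM in mutant nerves (log2 difference 0.66, standard error 0.192, limma-trend adjusted p = 0.0933), and it passed with the replicate block (0.70, adjusted p = 0.0186), with array weights (0.0267) and without mutant sample 2 (0.0417). Its highest value was in mutant sample 1. Without that sample, and with neither block nor weights, the difference was 0.45 (limma-trend adjusted p = 0.196). Glutathione synthetase, Gss, was at 62.9, 58.8, 58.8 and 62.7 FPKM in control and 44.7, 54.7 and 42.2 FPKM in mutant nerves. Its log2 difference was -0.37 (standard error 0.0889, limma-trend adjusted p = 0.0620), and it passed without mutant sample 2 (-0.48, adjusted p = 0.0225) and with array weights (-0.41, adjusted p = 0.0167). It was -0.34 without mutant sample 1 (limma-trend adjusted p = 0.135). Gpx7 and Gpx8, relatives of the members that use cysteine, had log2 differences of 0.29 and 0.38 (limma-trend adjusted p = 0.156 and 0.0993), and both were highest in mutant sample 1. Without that sample they were 0.14 and 0.24 (limma-trend adjusted p = 0.327 and 0.206). Gpx8 passed with array weights (limma-trend adjusted p = 0.0442) and without mutant sample 2 (0.0331).

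The receptors of selenoprotein P belong to the LDL receptor family, of which Lrp8 also serves the reelin pathway. In a list of 16 further genes of this family and pathway, limma-trend called 0 genes (2.62% of all genes). An unadjusted p under 0.05 in limma-trend was found for 6 of them (24.4% of all genes). With the replicate block 4 passed, all higher, namely Lrp1, Lrp6, Dab2 and Cubn (6.42% of all genes were called higher by it). The fit on genotype alone called none of these 4 with all samples. In that fit without mutant sample 1 they had log2 differences of 0.17, 0.22, 0.35 and 0.49 (limma-trend adjusted p = 0.709, 0.253, 0.299 and 0.257). With array weights 3 passed, namely Lrpap1, Dab2 and Cubn (11.0% of all genes), and without mutant sample 2 Vldlr (limma-trend adjusted p = 0.0339) and Dab2 (0.0446) passed. The median log2 difference was 0.237. Lrp1, the most abundant, was at 193 ± 46.6 FPKM in control and 252 ± 72.6 FPKM in mutant nerves, with overlap (limma-trend adjusted p = 0.324, 0.0346 with the block). Lrpap1, the chaperone of the family, was at 99.8 ± 5.40 and 121 ± 10.7 FPKM (limma-trend adjusted p = 0.0792, 0.0388 with array weights and 0.180 without mutant sample 1). Vldlr, the other reelin receptor, was at 49.4 ± 3.08 and 40.1 ± 5.08 FPKM (log2 difference -0.30, limma-trend adjusted p = 0.0959). Cubilin (Cubn), the partner of megalin, was at 1.11, 0.573, 0.821 and 1.14 FPKM in control and 2.62, 1.26 and 1.68 FPKM in mutant nerves. Its log2 difference was 0.72 (standard error 0.224, limma-trend adjusted p = 0.106, and 0.0271 with the block).

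**Figure D4:**
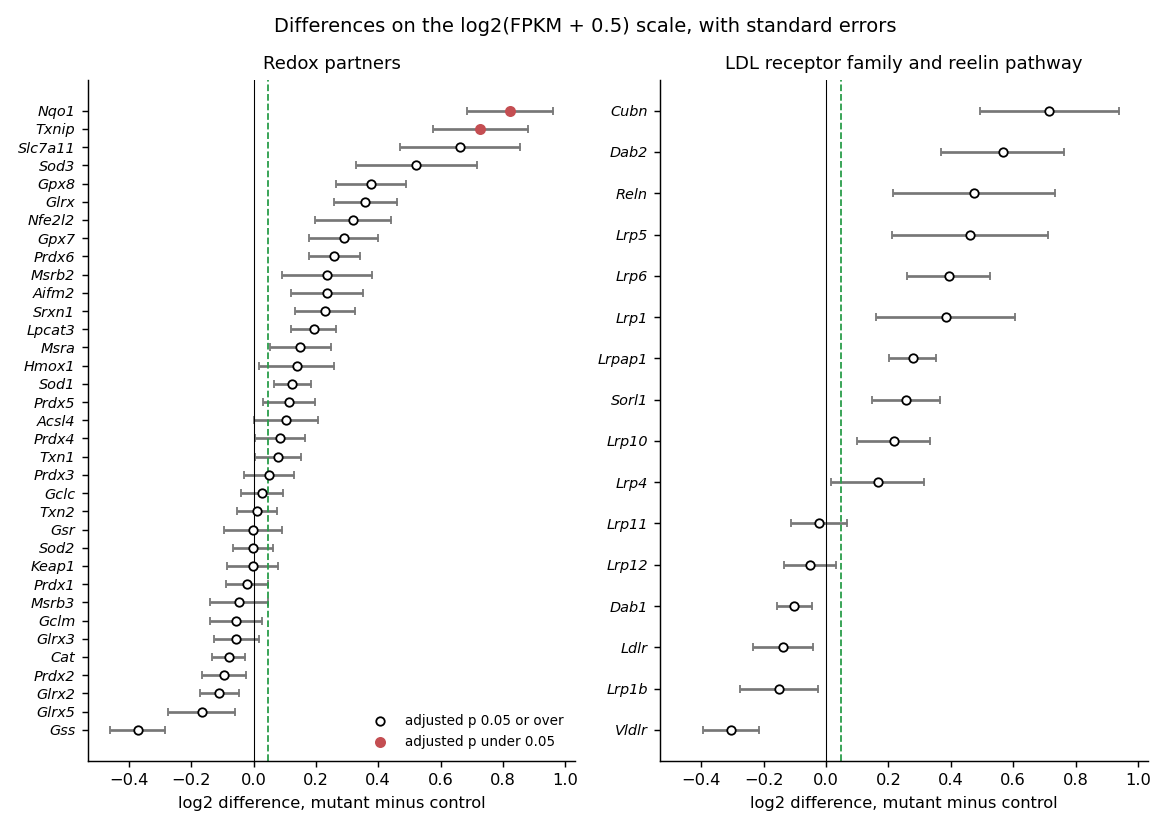
Log2 difference of mutant minus control with its standard error, on the log2(FPKM + 0.5) scale, for 35 redox partners and for 16 genes of the LDL receptor family and reelin pathway; filled points had an adjusted p under 0.05 in limma-trend, and the dashed line is the median of all genes tested, 0.0478. Nqo1 (0.82) and Txnip (0.73) are the 2 filled points.

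Astrocyte markers differed between the groups in the same direction as Sepp1 and Gpx3. All 7 were higher in mutant nerves, 4 of them past the threshold in limma-trend, and their summed level was 2903 to 3338 FPKM in control and 3752 to 4606 FPKM in mutant nerves. For this and the other marker lists, the shares over all 13866 genes tested serve as the background. Of these genes, 8329 had a positive and 5537 a negative log2 difference, and limma-trend called 1.26% higher and 1.36% lower. Among the controls, sample 4 had the highest sum of astrocyte markers but the lowest Sepp1 (685 FPKM). Among the mutant samples, sample 1 was the lowest both in this sum and in Sepp1. The same sample was also the lowest mutant sample in the sums of the microglia, OL and OL progenitor markers. In Gpx3, mutant sample 1 was instead the highest, as it was in the sums of the meningeal fibroblast, mural, endothelial and choroid plexus markers. All 6 meningeal fibroblast markers were higher, 0 past the threshold, with sums of 694 to 1274 FPKM in control and 1164 to 2153 FPKM in mutant nerves. All 5 mural markers were higher and 0 passed, with sums of 267 to 359 and 356 to 517 FPKM. The 7 endothelial markers were higher without passing (110 to 131 and 145 to 151 FPKM), as were the 7 microglia markers (233 to 278 and 264 to 306 FPKM). Of the 5 choroid plexus markers 2 were tested and 0 passed, with sums of 4.89 to 6.15 and 6.13 to 26.2 FPKM, and none was at 0 in all samples. All 7 OL markers were lower, 2 of them past the threshold, with sums of 54950 to 62680 FPKM in control and 39820 to 51060 FPKM in mutant nerves, and 4 of 5 OL progenitor markers were lower, 1 past the threshold. The summed level of OL progenitor markers was 118 to 147 FPKM in control and 116 to 136 FPKM in mutant nerves. The part of these cell types in the values of Sepp1, Gpx3, Nqo1 and Txnip was not tested.

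**Figure D5:**
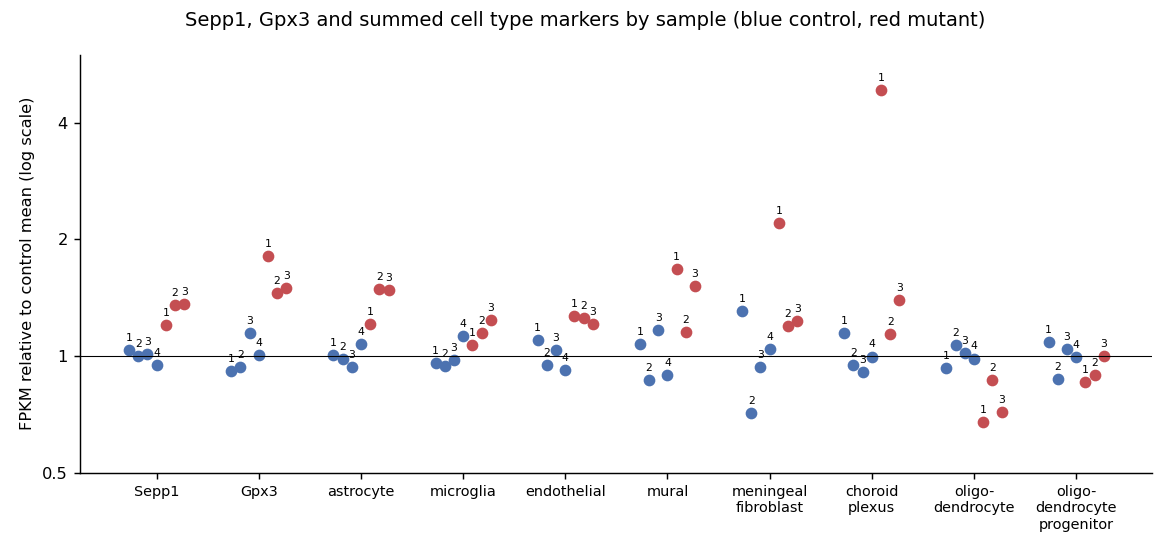
FPKM of Sepp1 and Gpx3 and summed FPKM of 8 marker lists in each sample, relative to the control mean, on a log axis; control samples are blue, mutant samples red, and the number beside a point is the sample number. Sepp1 reaches 1.36 and the astrocyte markers 1.49 times the control mean, and mutant sample 1 stands apart in the meningeal fibroblast (2.21) and choroid plexus (4.87) markers.

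The genes whose pattern was most like that of Sepp1 were sought among 7062 other genes with a mean of at least 10 FPKM, by Pearson's r of log2(FPKM + 0.5) over the 7 samples. The closest were Aldh6a1 (r = 0.982), a mitochondrial enzyme of valine breakdown, Aldoc (r = 0.978), a glycolytic aldolase that is also in the astrocyte list, Snn (r = 0.978), Ppp1r2 (r = 0.972), an inhibitor of protein phosphatase 1, and Gria1 (r = 0.972), a subunit of AMPA receptors. Aldoc was at 336 FPKM in control and 521 FPKM in mutant nerves. The points share genotype and library, and with deviations from the group means in place of the values r was between 0.683 and 0.887 for these 5 genes. These correlations are a description over 7 samples of 2 groups. The same measure with Sepp1 was 0.804 for Gpx3 over all samples and -0.638 for deviations from the group means.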

How the data were processed

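RNA was sequenced from P14 optic nerves of 4 control and 3 mutant mice, grouped by the genotype in the labels. The authors prepared libraries with a stranded poly(A) kit, aligned cleaned single end reads to GRCm38 with STAR 2.5.1b and quantified genes with RSEM 1.2.22. They deposited a normalized count, a signal whose steps at low values fit an estimate scaled by 1 factor per sample, and an FPKM value, scaled by transcript length and library size. The deposited table also holds the fold change, p-value and FDR of the authors' comparison, which were not used. FPKM was tested with limma-trend (limma 3.58.1, R 4.3.3) on log2(FPKM + 0.5). A gene entered when 3 or more samples reached 0.5 FPKM, which left 13866. Genotype was the sole term, and p-values were adjusted by Benjamini-Hochberg. This scale understates differences of low genes. The test was checked on simulated data.

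The authors used edgeR. Taking that step as 1 read, between 73.3% and 79.3% of values of 0.5 to 10 reads came out whole (within 0.02), too few for a count test, so the recovered read totals serve as an estimate of depth only. Members and lists were chosen with earlier results of these data known. Named are all members, list genes that passed or were filtered out, the 3 most abundant of each list, and 5 correlates of Sepp1, and other list genes were singled out after their values were seen. Sep15 and Selv stand in the table under other symbols and were matched by Ensembl ID. Selenocysteine codons were read from GENCODE M21. Deviations from the group means had r across genes of 0.168 to 0.409 for 3 same-numbered pairs and -0.353 to 0.205 for 9 others. These ranges overlap, and deviations within a group sum to 0, so the pairs are not independent. The number may pair samples, but the labels do not say what it marks, and these values do not settle it. A fit with it as a replicate block was therefore run beside the one without. Alternatives were other pseudocounts (0.1, 1), filters, scalings, array weights, the block, and each sample left out. Each was applied to the main fit by itself.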

Additional observations from a re-analysis of the deposited data

How the results depend on the processing

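Over all genes, 363 calls became 95 with no filter on low values, 1525 with array weights, 1159 with the replicate block, and 6 to 909 with 1 sample left out, lowest without control sample 3 or mutant sample 3 and highest without mutant sample 2. Calls among redox partners (2) became 0 with no filter, 7 with array weights and 0 to 5 with 1 sample left out. For the LDL receptor family (0) they became 3 with array weights, 4 with the replicate block and 0 to 2 with 1 sample left out, for other selenoproteins (0) 1 with the replicate block, and for the selenocysteine machinery (0) 1 with array weights. Neither of these last lists had a call with 1 sample left out. The log2 difference of Sepp1 was 0.31 on the normalized counts and 0.30 with centred samples, which shift the median of all log2 differences by -0.0765 and -0.0825. By the same scalings Txnrd1 was -0.0273 and -0.0331, Gpx4 -0.0169 and -0.0213, Lrp2 -0.14 and -0.12, Sepw1 -0.17 and -0.18, Gpx1 0.0374 and 0.0326, Txnrd2 0.0264 and 0.0155, Lrp8 0.0129 and 0.00539, and Gpx3 0.58 and 0.57, so that Txnrd1 and Gpx4 changed sign. With 1 sample left out the differences ran from 0.35 to 0.44 for Sepp1, 0.55 to 0.71 for Gpx3, -0.19 to -0.0459 for Sepw1, -0.0134 to 0.21 for Gpx1, 0.0149 to 0.0990 for Gpx4, 0.0263 to 0.0690 for Txnrd1, 0.0150 to 0.19 for Txnrd2, 0.0109 to 0.19 for Lrp8 and -0.0914 to 0.00683 for Lrp2. With the replicate block Sepp1 was at 0.36 and Gpx3 at 0.65. The block changed no other call among the named genes of the other lists than those given with it. The cause of these changes was not tested. Lrp2 had 104 to 164 reads per sample, the fewest of the 9 genes.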

Other observations

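Sep15 is listed in the deposited table under the symbol 15-Sep, the form a spreadsheet gives to that name, and a search by symbol alone would leave out the most abundant of the 17 other selenoproteins. For deviations from the group means over the 7 samples, Pearson's r with Sepp1 was -0.927 for Gpx1, -0.775 for Gpx4 and -0.638 for Gpx3, against 0.804 for Lrp8 and 0.510 for Txnrd1, and it was -0.0453 for Sepw1, -0.196 for Txnrd2 and -0.199 for Lrp2. Control sample 1, with the highest Sepp1 of the controls (746.9 FPKM), had the lowest Gpx1 (79.48 FPKM), Gpx4 (249.3 FPKM) and Sepw1 (237.0 FPKM). These values share libraries and 2 group means, were noticed after the data were seen, and are given as a description.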
